A study of Homo sapiens with 6 samples.

Results

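The small-subunit (SSU) processome is the large particle that assembles on nascent pre-ribosomal RNA in the nucleolus and makes the precursor of the 40S ribosomal subunit. The U3 small nucleolar RNA and several prefabricated protein modules fold the pre-rRNA and cut away its spacers. The remaining particle, the pre-40S, is then exported and finished in the cytoplasm. Ribosome production of this kind is high in dividing tumour cells, and the finished 40S subunit is what the initiation factor eIF3 binds.

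The genes described are 43 SSU processome and 40S maturation factors, among 18132 genes with at least 1 probe set assigned to a single symbol. They were chosen by name from the known composition of these particles, with earlier results of these data known. Of the 43, 42 had such a probe set, and each of the 42 passed the filter on low signals that left 13599 genes to test. PWP2 had none and is given from a shared probe set. Each gene was read from its brightest probe set, and its other probe sets served as a check.

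Signals came from Affymetrix arrays of TE-1, a human oesophageal squamous cell carcinoma line. One group was a TE-1 clone in which EIF3C, the gene of an eIF3 subunit, was stably knocked down, and the other was the parental TE-1 cells, called control, with 3 arrays each. The knockdown arrays come from 1 clone, no clone with a control construct is described in the labels, and the labels call the replicates biological without saying whether they were separate cultures. The p-values therefore rest on the spread among these arrays, part of which may be technical, and a difference of the clone that is unrelated to EIF3C cannot be told apart from the knockdown.

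The knockdown was visible in the target. The 3 bright probe sets shared by EIF3C and its near-identical copy EIF3CL stood at 21.5% to 22.6% of control, and 2 dim ones at 51.1% and 66.9%. Array medians were 6.09 to 6.11 on the log2 scale, and arrays correlated at 0.9977 to 0.9985 within groups and 0.9823 to 0.9846 between groups. The log2 difference between 3′ and 5′ probe sets of ACTB, a sign of RNA integrity, was 0.49 to 0.52 in knockdown and 0.49 to 0.64 in control. Of 9 measured squamous or epithelial markers, 5 lay above the array median, with EPCAM and CDH1 brightest and KRT5, KRT14, SOX2 and KRT13 not. The summed signal of these 9 was 67.91 to 68.49 in knockdown and 70.79 to 71.13 in control. KRT15 averaged 7.63 in knockdown and 8.55 in control, DSG3 7.45 and 8.14, TRIM29 7.95 and 8.94 and SOX2 5.52 and 5.77, each lower in knockdown without overlap. EPCAM averaged 12.10 in knockdown and 11.89 in control and CDH1 11.44 and 11.21, both higher without overlap. The part of these markers in the results was not tested. Of 18 measured markers of leukocytes, stroma and glandular or hepatic cells, 1 lay above the array median, namely the erythroid gene HBB. Among the rest, CDH5 was higher in knockdown without overlap, and COL1A1, COL3A1 and LUM were lower without overlap.

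Most genes of the SSU processome and of 40S maturation were higher in knockdown cells. Of 42 tested, 37 rose and 3 fell past an adjusted p of 0.05 (limma with Benjamini-Hochberg adjustment over 13599 genes), and TBL3 and NOL6 did not pass. Among all genes tested, 32.4% rose and 34.1% fell at the same threshold, 66.5% in either direction. The shares for the 42 genes were 88.1% and 7.14%. Their median log2 fold change was 0.47, against -0.03 over all genes. The sizes were moderate: 15 of the 42 rose at least 1.5-fold, which 8.84% of all genes did, and 0 fell that far, which 7.71% of all genes did. RIOK2 alone rose at least 2-fold, which 2.6% of all genes did.

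The knockdown arrays lay above all control arrays for 36 of the 42 genes, as they did for 33.6% of all genes, and below them for 3, as for 36.7% of all genes. Differences of 85 non-human control probe sets ran from -0.22 to 0.20, and 34 of the 42 genes lay above that range and 2 below it. For all genes these shares were 26.7% and 25.9%. When a rise of more than 1.2-fold was required by the test itself (limma's treat), 24 of the 42 were higher and 2 lower, beside 16.1% and 14.9% of all genes. The median signal over the 42 genes was 9.003, 8.96 and 8.96 on the knockdown arrays and 8.57, 8.55 and 8.46 on the control arrays. Control replicate 3 was the lowest control for 28 of the 42 genes, a count not made over all genes. Over all human probe sets it correlated at 0.9977 and 0.9978 with control replicates 1 and 2, which correlated at 0.9985 with each other. Without control replicate 3, 36 of the 42 genes rose and 3 fell.

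**Figure D1:**
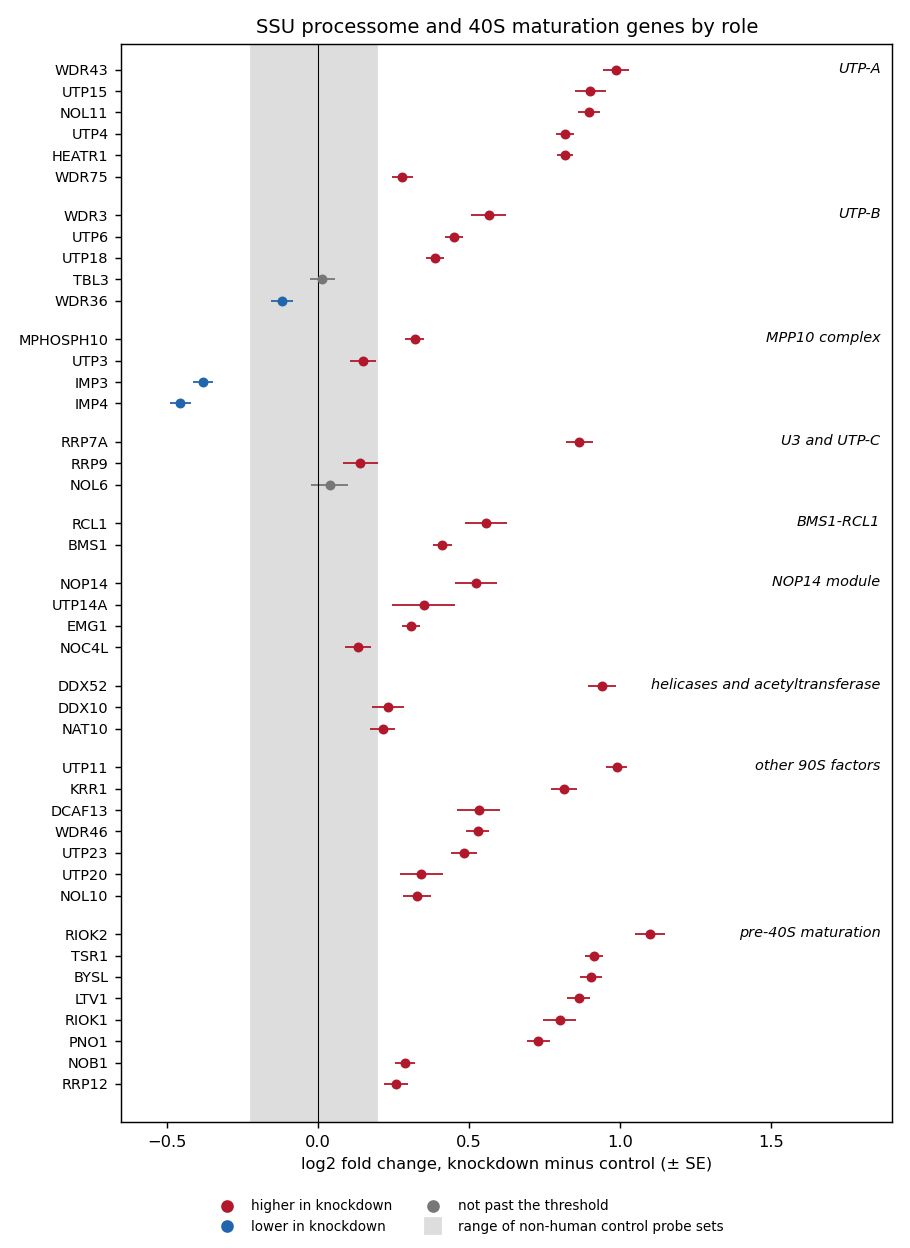
Log2 fold change (knockdown minus control, with SE, 3 arrays per group) of the 42 tested genes, grouped by role, with the range of the 85 non-human control probe sets shaded from -0.22 to 0.20. UTP-A and pre-40S genes lie to the right, up to 1.10 for RIOK2, and IMP3 and IMP4 are the points to the left of the shaded range.

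Promoter sequence was not used to choose the genes. RefSeq promoters (GRCh38.p14, 250 bases before to 50 after the annotated start) were at hand for 37 of the 43 genes. The E-box CACGTG, the hexamer bound by MYC with MAX and by other helix-loop-helix factors, stood in 16 of the 37, or 43.2%. It stood in 12.1% of the promoters of 10979 tested genes and in 8.77% of the promoters of 27305 genes in the table. The ETS-type motif CCGGAAG stood in 35.1% of the 37, beside 20.1% of tested genes and 12.2% of all. Both strands were searched, and a match describes letters, not binding.

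The 6 promoters printed here include those of WDR43, UTP4, LTV1 and BYSL, which rose strongly and hold an E-box. The others are those of RIOK2 and IMP4. RIOK2, the largest rise, holds none of the motifs searched. IMP4 fell, and its window holds the E-box in 2 places. Capitals mark the motif matches, none of which overlap in these windows.
WDR43, chr2:28894417-28894716, plus strand: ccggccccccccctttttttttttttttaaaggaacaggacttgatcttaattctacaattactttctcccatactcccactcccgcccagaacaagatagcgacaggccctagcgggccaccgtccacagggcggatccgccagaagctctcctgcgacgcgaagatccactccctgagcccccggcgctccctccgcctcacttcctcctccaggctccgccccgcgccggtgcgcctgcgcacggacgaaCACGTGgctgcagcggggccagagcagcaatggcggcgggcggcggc
UTP4, chr16:69132399-69132698, plus strand: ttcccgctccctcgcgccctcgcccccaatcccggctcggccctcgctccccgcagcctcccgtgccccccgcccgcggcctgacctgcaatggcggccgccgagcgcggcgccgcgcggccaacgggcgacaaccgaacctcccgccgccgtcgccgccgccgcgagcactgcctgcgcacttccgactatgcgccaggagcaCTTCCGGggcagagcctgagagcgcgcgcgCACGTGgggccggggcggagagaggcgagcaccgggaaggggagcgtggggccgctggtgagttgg
LTV1, chr6:143843088-143843387, plus strand: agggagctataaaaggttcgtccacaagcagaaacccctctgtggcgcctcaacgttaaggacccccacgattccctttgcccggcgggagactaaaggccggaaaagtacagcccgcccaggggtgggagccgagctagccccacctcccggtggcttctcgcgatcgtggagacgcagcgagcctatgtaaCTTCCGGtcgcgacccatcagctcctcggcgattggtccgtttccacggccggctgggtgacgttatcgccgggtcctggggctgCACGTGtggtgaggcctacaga
BYSL, chr6:41921249-41921548, plus strand: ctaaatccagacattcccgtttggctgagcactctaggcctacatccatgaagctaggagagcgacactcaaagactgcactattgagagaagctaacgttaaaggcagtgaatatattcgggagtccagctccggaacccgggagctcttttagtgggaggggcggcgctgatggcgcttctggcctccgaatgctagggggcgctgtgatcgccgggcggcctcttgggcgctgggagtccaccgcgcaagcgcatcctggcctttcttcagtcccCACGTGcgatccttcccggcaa
RIOK2, chr5:97183198-97183497, minus strand: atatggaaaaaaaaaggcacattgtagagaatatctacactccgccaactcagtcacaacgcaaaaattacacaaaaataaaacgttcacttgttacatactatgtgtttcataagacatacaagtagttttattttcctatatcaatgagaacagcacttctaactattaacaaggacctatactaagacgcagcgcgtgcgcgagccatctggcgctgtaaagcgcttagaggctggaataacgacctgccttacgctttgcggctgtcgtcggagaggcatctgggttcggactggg
IMP4, chr2:130342647-130342946, plus strand: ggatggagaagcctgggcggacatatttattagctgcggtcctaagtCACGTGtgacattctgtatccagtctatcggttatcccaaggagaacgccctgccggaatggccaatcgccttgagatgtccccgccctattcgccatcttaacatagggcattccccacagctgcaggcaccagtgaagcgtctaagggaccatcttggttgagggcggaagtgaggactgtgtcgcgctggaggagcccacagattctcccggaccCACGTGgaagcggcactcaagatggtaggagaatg

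Counted from the annotated start, the E-box begins at position 4 in WDR43, at -16 in UTP4, at 29 in LTV1 and in BYSL, and at -203 and 16 in IMP4. UTP4 and LTV1 also hold the ETS-type motif, read on the opposite strand, from -46 and -57. IMP4 has a second entry in the table, which holds neither an E-box nor the ETS-type motif, and the upstream one is shown. Of the 16 genes with an E-box, 13 rose, IMP4 fell, NOL6 did not pass and PWP2 was not tested. The median log2 fold change was 0.52 with an E-box and 0.45 in the 21 genes without one. The printed promoters are not a sample of the 37. TSR1, NOL11, KRR1 and RIOK1 rose by 0.80 to 0.91 with no E-box in the window, while RRP9 (0.14) and NAT10 (0.21) hold one. Over all tested genes with a promoter, 36.6% of those with an E-box rose and 33.2% of those without. The split was wider for the ETS-type motif, where 43.7% of tested genes with it rose and 31.1% of those without. Among the 13 genes described here that hold it, 11 rose, WDR36 fell and PWP2 was not tested. Their median log2 fold change was 0.55, against 0.43 in the 24 genes without it.

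The UTP-A module, which binds the 5′ end of the nascent pre-rRNA and starts assembly, rose as a whole. All 6 of its genes were called higher, as were 32.4% of all genes tested, with a median of 0.86. WDR43, a WD-repeat subunit, had log2 signals of 8.86, 8.94 and 8.88 in knockdown, against 7.87, 7.95 and 7.90 in control. The groups were nearly 1 log2 unit apart, a 1.98-fold difference (log2 fold change 0.99, SE 0.04, adjusted p = 1.94e-12), and its other probe set stood at 0.44. The WD-repeat subunit UTP15 rose by 0.90, NOL11, a subunit found in animals, by 0.90, UTP4 by 0.82 and the large HEAT-repeat scaffold HEATR1 by 0.82. WDR75 rose by 0.28 and was the smallest of the module. Every probe set of these 6 genes was called higher, but the other 3 of HEATR1 stood at 0.27 to 0.39, and the mean of its probe sets gave 0.46.

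The UTP-B module, which joins next and shapes the pre-rRNA around U3, was mixed. Of 5 tested, 3 rose, WDR36 fell and TBL3 did not pass, beside 32.4% of all genes that rose and 34.1% that fell. WDR3 had 8.71, 8.81 and 8.69 in knockdown, against 8.24, 8.26 and 8.02 in control, and both of its probe sets rose (0.56, SE 0.06, adjusted p = 1.27e-07). UTP6 rose by 0.45 and UTP18, which in yeast recruits an exosome helicase, by 0.39.

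WDR36, a WD-repeat subunit, had 8.63, 8.64 and 8.66 in knockdown, against 8.75, 8.78 and 8.76 in control on its brightest probe set. The difference of -0.12 passed (SE 0.04, adjusted p = 0.00834) but lies within the range of the non-human controls. The next probe set fell further, by 0.31, and the dimmest was called higher, at 0.27. TBL3 had 8.26, 8.33 and 8.29 in knockdown and 8.32, 8.27 and 8.24 in control, so its groups overlapped (log2 fold change 0.02, SE 0.04, adjusted p = 0.771). PWP2, the remaining subunit, shares its probe set with LOC102724159. That set averaged 8.93 ± 0.02 in knockdown and 8.86 ± 0.02 in control (SD, n = 3 each) and did not pass in limma's fit over all human probe sets (log2 fold change 0.07, adjusted p = 0.108).

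The MPP10 complex was split, and it held the 2 clear falls. MPHOSPH10, its scaffold, had 9.81, 9.87 and 9.79 in knockdown, against 9.50, 9.50 and 9.52 in control (0.32, SE 0.03, adjusted p = 9.21e-08). IMP4, which in yeast helps U3 to pair with the pre-rRNA, had 9.01, 9.02 and 9.002 in knockdown, against 9.46, 9.53 and 9.42 in control. Its groups did not overlap, in the direction opposite to MPHOSPH10 (log2 fold change -0.45, SE 0.04, adjusted p = 4.73e-09).

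IMP3, the partner of IMP4, averaged 9.27 ± 0.04 in knockdown and 9.65 ± 0.03 in control (SD, n = 3 each), a log2 fold change of -0.38 (adjusted p = 2.17e-08). Its other probe set also fell, by 0.35. IMP3 and IMP4 were the only genes of the 42 that fell with a required minimum of 1.2-fold (limma's treat with Benjamini-Hochberg adjustment, adjusted p = 0.0055 for IMP3 and 0.000145 for IMP4). Both kept a fall past the threshold under each alternative that could be run for them, and with any array left out. IMP4 has 1 probe set, so it has no check by another. UTP3, grouped here with the complex, rose by 0.15 on its brighter probe set, and the other stood at -0.01.

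**Figure D2:**
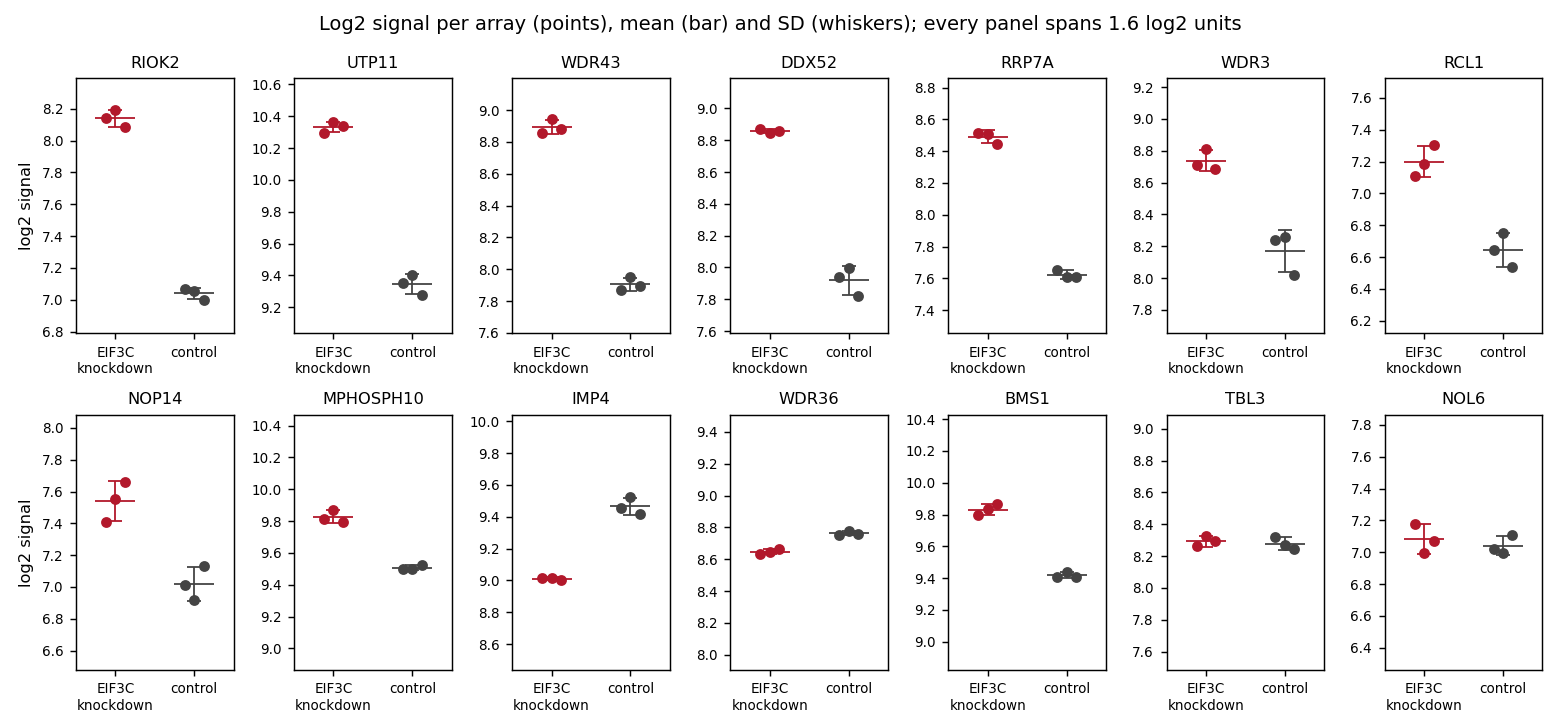
Log2 signal on each of the 3 knockdown and 3 control arrays for 14 genes, with the mean and SD, each panel spanning the same height. RIOK2, UTP11 and WDR43 differ by about 1 unit with tight replicates, IMP4 and WDR36 are lower in knockdown, and the points of TBL3 and NOL6 overlap.

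Among proteins that dock on U3 or join through the UTP-C pair, 1 gene moved clearly. RRP7A, a UTP-C subunit in yeast, had 8.52, 8.51 and 8.44 in knockdown, against 7.65, 7.61 and 7.61 in control (0.87, SE 0.04, adjusted p = 1.80e-11). Its other 4 probe sets ranged from 0.19 to 0.36, of which 3 were called, and a further one shared with RRP7BP stood at 0.94. NOL6, the other UTP-C gene, had 7.18, 6.99 and 7.07 in knockdown and 7.02, 6.997 and 7.11 in control (log2 fold change 0.04, SE 0.06, adjusted p = 0.594).

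The 7 probe sets of NOL6 disagreed, with 3 called higher, 1 called lower and 3 not called, between -0.20 and 0.31. RRP9, which binds U3 itself, passed narrowly at 0.14 (SE 0.06, adjusted p = 0.0432), with 7.56, 7.49 and 7.39 in knockdown and 7.42, 7.29 and 7.31 in control. The arrays overlap, RRP9 did not pass in the fit over single probe sets, and the call was lost without knockdown replicate 1 or 2 or control replicate 2 or 3 (adjusted p = 0.203, 0.103, 0.14 and 0.0796).

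BMS1, the GTPase of the particle, and RCL1, the cyclase-like protein it binds, both rose. BMS1 had 9.79, 9.83 and 9.86 in knockdown, against 9.41, 9.44 and 9.41 in control (0.41, SE 0.03, adjusted p = 3.36e-09). A further bright probe set agreed in direction at 0.45, a dim one with a mean signal of 4.06 was called lower at -0.37, and one shared with BMS1 pseudogenes and AGAP9 stood at 0.21. RCL1 had 7.11, 7.18 and 7.31 in knockdown, against 6.64, 6.75 and 6.54 in control (0.56, SE 0.07, adjusted p = 1.75e-06).

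The NOP14 module rose in all 4 genes, beside 32.4% of all genes tested, with a median of 0.33. NOP14 had 7.41, 7.55 and 7.66 in knockdown, against 7.01, 6.92 and 7.13 in control (0.52, SE 0.07, adjusted p = 3.84e-06), and its other probe sets showed larger differences of 0.71 and 0.999. EMG1, a methyltransferase that modifies a pseudouridine of 18S rRNA, rose by 0.31. Of its 5 probe sets, 3 dim ones with mean signals of 2.93 to 4.02 were not called. The rise of EMG1 did not pass limma's treat at 1.2-fold (adjusted p = 0.225). NOC4L, a binding partner of NOP14, rose by 0.13, inside the range of the non-human controls, and did not pass without knockdown replicate 1 (adjusted p = 0.0701). UTP14A, which in yeast activates a helicase that removes U3, rose by 0.35 on a dim probe set with a mean of 5.11 in control. The brighter set it shares with UTP14C stood at 0.36.

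The helicase genes DDX52 and DDX10 and the acetyltransferase gene NAT10 rose by unequal amounts. DDX52, a DEAD-box helicase, had 8.87, 8.84 and 8.86 in knockdown, against 7.94, 7.996 and 7.82 in control (0.94, SE 0.05, adjusted p = 1.33e-11). The related DDX10 rose by 0.23, and NAT10, the acetyltransferase of 18S rRNA cytidines, by 0.21. The rises of DDX10 and NAT10 were below the minimum of 1.2-fold in limma's treat.

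The other factors of the early particle rose in 7 of 7 cases, beside 32.4% of all genes tested, with a median of 0.53. UTP11 had 10.30, 10.36 and 10.34 in knockdown, against 9.35, 9.40 and 9.28 in control, a 1.98-fold difference (0.99, SE 0.03, adjusted p = 1.71e-13), and its other probe set stood at 0.78. KRR1, an RNA-binding KH-domain protein, rose by 0.82 and was called higher on each of its 5 probe sets. The WD-repeat genes DCAF13 and WDR46 rose by 0.53 each, UTP23 by 0.48, the very large scaffold UTP20 by 0.34 and NOL10 by 0.33. For UTP23 the dimmer probe set differed more, at 0.87, and for NOL10 a dim one, at 0.03, did not pass.

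The 8 genes of pre-40S maturation all rose, with a median of 0.83, and 6 of them rose at least 1.5-fold. Among all genes tested, 32.4% rose and 8.84% rose at least 1.5-fold. RIOK2, an atypical kinase needed for the last steps in the cytoplasm, had 8.14, 8.19 and 8.08 in knockdown, against 7.07, 7.06 and 7.001 in control. This 2.14-fold difference was the largest of the 42 genes (1.10, SE 0.05, adjusted p = 4.82e-12). A further RIOK2 probe set stood at 1.38, and the dimmest, at 0.01, did not pass.

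TSR1, a GTPase-like protein that in yeast helps to block premature subunit joining, rose by 0.91, BYSL (bystin) by 0.90 and LTV1, which leaves before the subunit matures, by 0.86. RIOK1, the kinase that follows RIOK2, rose by 0.80, and PNO1, the partner of the endonuclease NOB1, by 0.73. NOB1, which makes the final cut of 18S rRNA, rose by 0.29 and RRP12, an export factor, by 0.26. For BYSL, 1 of 3 probe sets was called, and the other two were dim, with mean signals of 3.07 and 3.08.

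**Figure D3:**
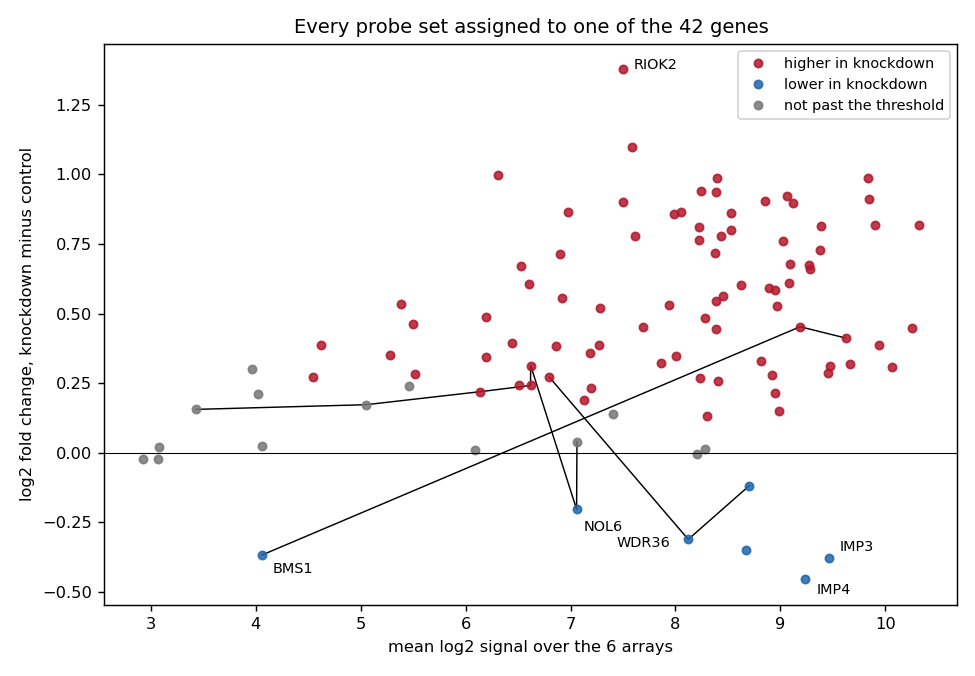
Log2 fold change of each of the 103 probe sets of the 42 genes against its mean log2 signal over 6 arrays, with lines joining the probe sets of WDR36, BMS1 and NOL6. Most of the probe sets lie above 0, and the 7 called lower belong to IMP3, IMP4, WDR36, NOL6 and, at a signal of 4.06, BMS1.

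Over the probe sets, 82 of 103 were called higher, 7 lower and 14 neither, in a fit over the 44988 single-symbol probe sets. Of all probe sets in that fit, 24.2% were called higher and 24.4% lower. Of 31 genes with more than 1 probe set, 21 were called higher on all of them and IMP3 was called lower on all of its own. WDR36, NOL6 and BMS1 were called in both directions. This count by gene was not made over all genes, so it has no background share.

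Other factors of the same particles, listed by their known roles, were mostly higher too. Of 27 such factors listed, 23 were tested, of which 18 rose and 2 fell, with a median of 0.43. The shares were 78.3% and 8.7%, beside 32.4% and 34.1% of all genes. With treat at 1.2-fold, 12 were higher and 1 lower, beside 16.1% and 14.9% of all genes. SLX9, a pre-40S factor, rose by 0.88, PDCD11, which links early processing of both subunits, by 0.82, the deubiquitinase gene USP16 by 0.78 and RRP36 by 0.75. TSR2, the escort of the ribosomal protein RPS26, fell by 0.44 and the deadenylase gene PARN by 0.25. The 4 proteins of the U3 box C/D core also rose, NOP58 by 1.09, the methyltransferase fibrillarin (FBL) by 0.70, NOP56 by 0.43 and SNU13 by 0.42. For SNU13, 1 of 2 probe sets was called lower.

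Of 37 tested assembly factors of the large subunit, 31 rose and 4 fell, with a median of 0.40. The shares were 83.8% and 10.8%, beside 32.4% and 34.1% of all genes. With treat at 1.2-fold, 24 were higher and 1 lower, beside 16.1% and 14.9% of all genes. RPF2, which helps to install the 5S RNA, rose by 1.24, WDR12 by 0.92, PPAN by 0.80 and the GTPase gene GTPBP4 by 0.79. NOP53 fell by 0.57, MAK16 by 0.21, RSL24D1 by 0.16 and DDX24 by 0.09. Of the 37, 30 lay above the range of the non-human controls and 1, NOP53, below it, beside 26.7% and 25.9% of all genes. RSL24D1 was called lower on 1 of 2 probe sets and DDX24 on 1 of 5.

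Of the proteins of the 40S subunit itself, 6 of 24 tested rose and 15 fell, with a median of -0.09. The shares were 25% and 62.5%, beside 32.4% and 34.1% of all genes. For the ribosomal proteins the balance of rises and falls depended on the probe sets used. Averaging all probe sets per gene, 8 rose and 9 fell. With the second probe set, 6 rose and 6 fell of 16 tested. RPS28 averaged 12.42 in knockdown and 13.24 in control, the largest fall of that list (log2 fold change -0.82, adjusted p = 9.11e-16). RPS29 fell by 0.31, RPS25 by 0.28 and RPS18 by 0.23. RPS9 rose by 0.21, RPS7 by 0.16, FAU by 0.15 and RPS10 by 0.12. Of the 24 genes, 1, RPS9, lay above the range of the non-human controls and 4, the falls just named, lay below it. For all genes these shares were 26.7% and 25.9%. The genes of this list are bright, with means of 12.15 to 13.69 in control. No test compared the lists with each other.

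**Figure D4:**
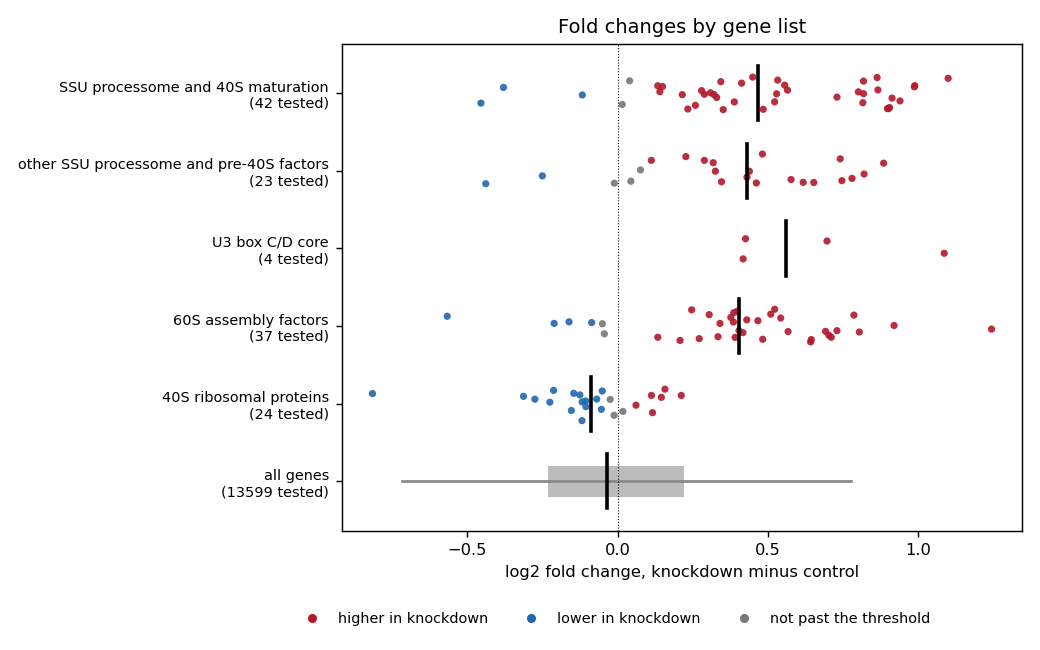
Log2 fold change of each tested gene (points, coloured by call) and the list median (black bar) for 5 lists, with all 13599 genes below as median, quartiles (box) and percentiles 5 to 95 (line, -0.72 to 0.78). Medians lie at 0.47, 0.43, 0.56 and 0.40 for the assembly factor lists, against -0.09 for 40S ribosomal proteins and -0.03 for all genes.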

How the data were processed

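Gene expression was measured on Affymetrix arrays in 3 EIF3C knockdown and 3 control samples of TE-1. The authors deposited log2 signals for 49395 probe sets. MAS5 is named, without a version, per the submitters' processing notes. How background was corrected, probes were summarised and logs taken is not given in the sources used here. That the scale is log2 follows from the range of the values alone, and array medians were so close that no further scaling was applied, so a change shared by all genes would not be seen.

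GEO's platform annotation gave the gene names, with 1 symbol for 44988 probe sets. Each gene took its probe set with the highest mean over 6 arrays, and the lowest 25% of genes were left out. limma 3.58.1 in R 4.3.3 was run (lmFit, then eBayes with an intensity trend) with group as the only term, and all p-values were adjusted by Benjamini-Hochberg over all features of the fit at a threshold of 0.05. The script was tested on simulated data. Probe sets were also fitted singly.

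The genes and lists were chosen with earlier results of these data known. Per-array values are given for the largest rise and fall in each role, the 3 largest rises, uncalled genes and genes whose probe sets disagree, and RRP9 was added after its values were seen. All 43 genes are named, as are up to 4 genes per direction of the other lists. The number of arrays limits the precision.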

Additional observations from a re-analysis of the deposited data

How the results depend on the processing

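Alternatives were no filter, a 50% filter, quantile normalization, median centring, the mean or the second brightest of a gene's probe sets, no trend, robust eBayes, array weights, treat at 1.2-fold, the replicate number as a block, and leaving out each array. Of 42 genes, the 37 counted higher became 24 with treat, with 2 lower. With an array left out, 35 to 37 were higher and 3 lower. Quantile normalization gave 35 higher and 4 lower. Their median log2 fold change was 0.50 with the 50% filter, 0.42 with quantile normalization, 0.41 with the mean of probe sets, 0.53 with the second probe set (29 genes) and 0.44 to 0.49 with an array left out. With the replicate block 37 rose and 3 fell, and the block changed no call of these genes. Same-numbered samples deviated from their group means with correlations of 0.08, 0.13 and 0.23 over genes, and control replicate 1 correlated better with knockdown replicate 2 (0.10), so the numbers were not taken as pairs. NOL6 stood at -0.22 with quantile normalization and -0.20 on its second probe set, both called lower. The brightest probe set was chosen again after quantile normalization, and the top NOL6 probe sets had mean signals of 7.061 and 7.058. Both values may therefore come from the same probe set. NOL6 stood between -0.0093 and 0.084 with an array left out, and was called higher with the mean of probe sets (0.13, adjusted p = 0.0221 in limma's fit). TBL3 stood at -0.019 with quantile normalization and between -0.0026 and 0.037 with an array left out. UTP3 stood at -0.0058 on its second probe set and lost its call with quantile normalization and the mean of probe sets. WDR36 lost its call with the mean of probe sets, and RRP9 with no filter, quantile normalization and no trend. With the second probe set, 2861 genes rose and 2670 fell of 8800 tested, with 9 of 16 other SSU factors, 2 of 3 U3 core genes and 20 of 31 large-subunit factors higher, and 1 U3 core gene and 6 of 16 ribosomal proteins lower, beside 6 higher. With treat, 2194 genes rose and 2024 fell, with 1 other SSU factor, 1 large-subunit factor and 2 ribosomal proteins lower and 0 ribosomal proteins higher. With the mean of probe sets, 8 ribosomal proteins rose and 9 fell. Fewer genes enter the second probe set fit, and treat requires a larger change; other causes were not tested. Dim signals, below about the lowest mean kept of 4.63, limit what single probe sets show.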
